A study of Mus musculus with 12 samples.

Results

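The abundance profile of untreated wild type cells describes RNA from dendritic cell cultures of mouse bone marrow that received no LPS. Its members are the arrays titled wild type, not treated, 1 and 2, which are 2 of the 12 Illumina bead arrays in the series. Genes were ranked by the mean deposited log2 value over these 2 arrays, each gene by its brightest probe among those with a deposited detection p-value under 0.05 on both. Of 19057 genes with a probe, 9497 were detected in this sense, or 49.8%. The series holds 4 groups of 3 arrays each: wild type immature cells, from which the profile comes, Ezh2-deficient immature, wild type mature and Ezh2-deficient mature cells, all labelled as strain C57/B6. Marrow came from mice with a floxed Ezh2 gene, with or without Mx-cre, a recombinase whose promoter responds to interferon. The labels do not pair each donor line with a group, so the cells called wild type may carry the floxed alleles. Every culture began with 20 ng/ml GM-CSF plus 10 ng/ml IL-4, had only 10 ng/ml GM-CSF from day 2 on, and lasted 6 or 7 days. Mature cells had 100 ng/ml LPS overnight, and an unspecified part of them went 6 h without serum. Nothing in the labels says whether the arrays of a group came from separate animals or cultures, so the spread between arrays 1 and 2 may be technical.

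The array titled as the 3rd of the same group is given apart, because it carried high signal for genes induced by LPS. Il6, an inflammatory cytokine, read 7.46 and 7.26 on arrays 1 and 2 and 12.02 on array 3. Its values are printed beside the profile where they help to read it and enter no mean.

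GM-CSF grows myeloid cells from marrow, and such cultures are known to hold macrophage-like and dendritic cell-like cells together with granulocytes and their precursors. IL-4 pushes the cells toward the dendritic form and turns on a set of lectins, chemokines and enzymes. Dendritic cells present peptides on MHC class II, a pair of chains that travels from the endoplasmic reticulum with the invariant chain Cd74 and is loaded by H2-DM, with the coactivator Ciita directing transcription of the whole group. Macrophages and monocytes are known for lysozyme, the M-CSF receptor Csf1r and the glycoprotein F4/80, which Adgre1 encodes.

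The promoter windows of 3 MHC class II genes and of the 2 lysozyme genes are shown because these families stand near the top of the profile and each family sits together in the genome. Each window runs from 250 bases before to 50 after the annotated start, is given 5′ to 3′ on the strand of the gene, and was taken from RefSeq on GRCm38.p6. H2-Eb1 is the window at chr17:34305617-34305916 on the plus strand. H2-Aa is the window at chr17:34287774-34288073 on the minus strand. H2-DMb1 is the window at chr17:34152941-34153240 on the plus strand. Capitals in these 3 mark a match to TGATTGG, the inverted CCAAT letters known as the Y box of class II promoters.
H2-Eb1: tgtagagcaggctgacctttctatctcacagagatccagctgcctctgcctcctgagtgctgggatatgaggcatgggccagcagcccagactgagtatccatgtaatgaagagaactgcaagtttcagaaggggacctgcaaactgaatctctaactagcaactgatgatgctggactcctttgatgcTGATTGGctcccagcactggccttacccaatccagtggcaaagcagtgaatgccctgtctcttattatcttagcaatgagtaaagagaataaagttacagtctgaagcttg
H2-Aa: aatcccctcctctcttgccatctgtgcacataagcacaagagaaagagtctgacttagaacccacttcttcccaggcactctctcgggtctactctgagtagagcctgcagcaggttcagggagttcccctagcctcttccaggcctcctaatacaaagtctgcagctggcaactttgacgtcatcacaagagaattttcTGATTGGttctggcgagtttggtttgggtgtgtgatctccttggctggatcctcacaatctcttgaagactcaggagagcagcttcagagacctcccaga
H2-DMb1: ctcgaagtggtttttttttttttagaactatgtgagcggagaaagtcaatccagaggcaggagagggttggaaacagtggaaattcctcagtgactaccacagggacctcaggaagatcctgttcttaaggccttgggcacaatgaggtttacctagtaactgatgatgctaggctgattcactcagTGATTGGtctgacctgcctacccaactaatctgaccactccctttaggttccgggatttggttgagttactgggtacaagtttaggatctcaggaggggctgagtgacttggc
The match began 61, 50 and 63 bases before the start in H2-Eb1, H2-Aa and H2-DMb1. Of the 14 genes in the MHC class II list, 11 had a window, and 7 of those held TGATTGG or CCAATCA on either strand, which are the same letters read from opposite strands. Among all 32851 windows of 300 bases, 7.82% held a match. The count of 7 is by gene, with a match in any window of the gene, whereas 7.82% is by window. The 3 windows shown all hold a match, so they do not stand for the whole list. A match of letters does not show that a factor binds there. H2-Ab1, Cd74 and Ciita are named without sequence.

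The lysozyme genes Lyz1 and Lyz2 lie side by side on chromosome 10, and their windows are 10297 bases apart. Lyz1 is the window at chr10:117292819-117293118 and Lyz2 the window at chr10:117282223-117282522, both on the minus strand. Capitals mark the longest run of letters that the windows share.
Lyz1: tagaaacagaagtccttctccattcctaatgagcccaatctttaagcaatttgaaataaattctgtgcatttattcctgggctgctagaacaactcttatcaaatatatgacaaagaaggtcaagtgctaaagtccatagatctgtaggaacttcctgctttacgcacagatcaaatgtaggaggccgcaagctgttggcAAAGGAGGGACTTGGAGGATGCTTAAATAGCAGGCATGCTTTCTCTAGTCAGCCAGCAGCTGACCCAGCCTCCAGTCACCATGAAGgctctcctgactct
Lyz2: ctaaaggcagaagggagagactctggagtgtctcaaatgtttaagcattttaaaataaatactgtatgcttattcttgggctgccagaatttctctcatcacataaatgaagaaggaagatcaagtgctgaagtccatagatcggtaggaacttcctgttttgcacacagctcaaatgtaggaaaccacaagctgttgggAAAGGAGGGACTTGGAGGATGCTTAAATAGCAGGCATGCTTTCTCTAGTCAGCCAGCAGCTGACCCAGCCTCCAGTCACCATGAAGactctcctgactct
The shared run is 86 bases long and spans the annotated start. Aligned over the whole 300 bases, 249 positions were identical, 49 differed and 4 were gaps. Only these windows were compared, and neither the transcripts nor the probes. Lyz1 and Lyz2 are known as closely related genes, and whether their probes share signal was not tested.

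Arrays 1 and 2 were close to each other in depth and in rank. They detected 18822 and 18850 of 45281 probes, and array 3 detected 18265. Median intensities were 119 and 114, and 116 on array 3. Over the 9497 detected genes the 2 arrays correlated at Pearson 0.988 and Spearman 0.984, and the median difference per gene, ignoring sign, was 0.146 on the log2 scale. These correlations run over genes, which are not independent, and describe the arrays only. Array 3 correlated with arrays 1 and 2 at 0.886 and 0.875, with median differences of 0.431 and 0.464.

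Shares of intensity set the brightest probe of each gene against the sum over all detected probes. That sum includes background, further probes of the same genes and 2513 probes without a single gene symbol, which lowers the shares. The 10 brightest genes held 2.34% and 2.27% of this sum on arrays 1 and 2. The 100 brightest held 13.3% and 13.6%, and the 1000 brightest held 38.4% and 39.1%. The mean was 15.94 at rank 1, 14.26 at rank 100 and 11.70 at rank 1000, against a median of 8.91 over all detected genes and 6.73 over genes not detected. The highest intensities were 64117 and 63853, and near this upper end of the scale the order of genes is compressed. Probe brightness also depends on the probe, so a rank describes signal and not the number of molecules.

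**Figure D1:**
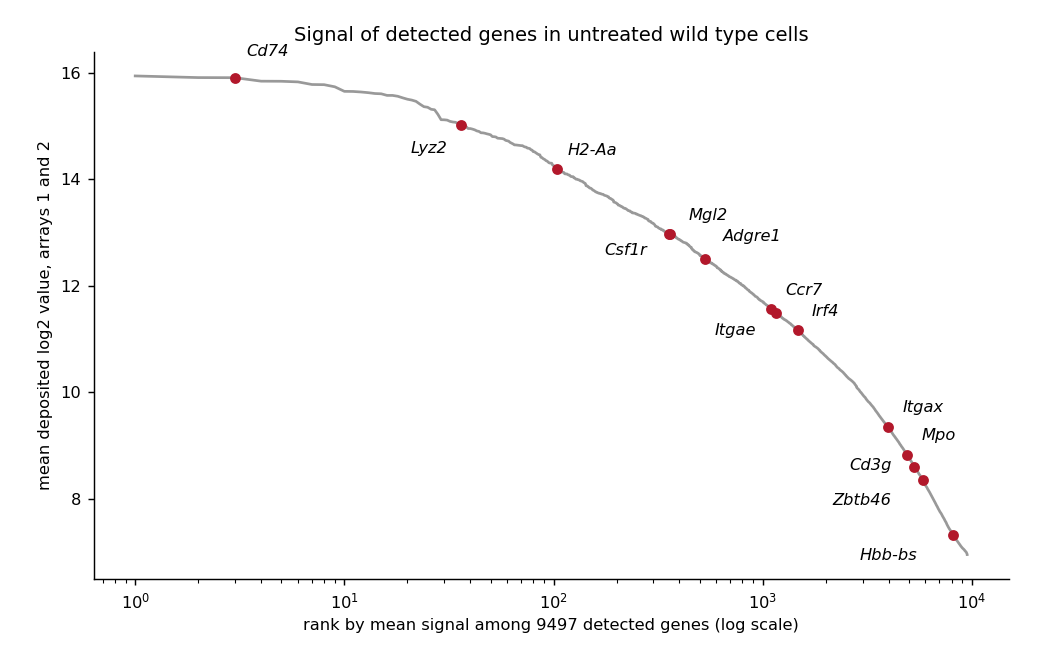
Mean deposited log2 value over arrays 1 and 2 against rank for the 9497 detected genes, with rank on a log scale and 14 named genes as red points. The curve is flat over the brightest 10 genes, and Itgax, Zbtb46 and Cd3g lie on its steep lower part.

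At the threshold itself, Zfp329 and Otx1 were the dimmest genes inside. Zfp329, a zinc finger gene, read 6.95 and 6.95 on arrays 1 and 2, and Otx1, a homeobox gene of the nervous system, read 6.95 and 6.95. The brightest genes outside were detected on array 1 alone. Retnlg, a secreted factor of neutrophils, read 8.19 and 6.93, and Grb7, a signalling adaptor, read 7.44 and 6.91.

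Genes of translation led the profile. The brightest gene was Rpl41, a protein of the large ribosomal subunit, at 15.92 and 15.97 on arrays 1 and 2 and 15.94 on array 3. Rps29, of the small subunit, followed at 15.94 and 15.88, and 15.79 on array 3. Eef1a1, the elongation factor that brings tRNA to the ribosome, was at rank 5 with 15.85 and 15.83, and 15.42 on array 3. Of the 40 brightest genes 13 encode ribosomal proteins, and of the 100 brightest 28 do, while 1.05% of detected genes are among the 100 brightest by definition. Rps2, Rplp1, Rps12, Rpl38, Rpl37, Rps24, Rpl9, Rps19, Rpl23, Rpl10a and Rps4x were the others in the top 40, with means from 15.74 for Rps2 down to 14.96 for Rps4x.

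The signals of ribosomal protein genes covered a wide range, although nearly all of these proteins enter the ribosome in equal copies. Of 55 genes in the 2 ribosomal lists with a probe, 49 were detected, beside 49.8% of all genes, and 27 were among the 100 brightest. The detected members had a median rank of 82, and they ran from a mean of 15.91 down to 7.84. Rps15a, Rpl21 and Rpl7a lay at ranks 6808, 6847 and 6855. Rpsa, Rps20, Rps23, Rpl6, Rpl14 and Rpl17 were not detected on both arrays, with values between 6.54 and 7.02. Whether these low readings come from the probes or from the transcripts was not tested, and a low value of any other gene is read with the same reserve.

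**Figure D2:**
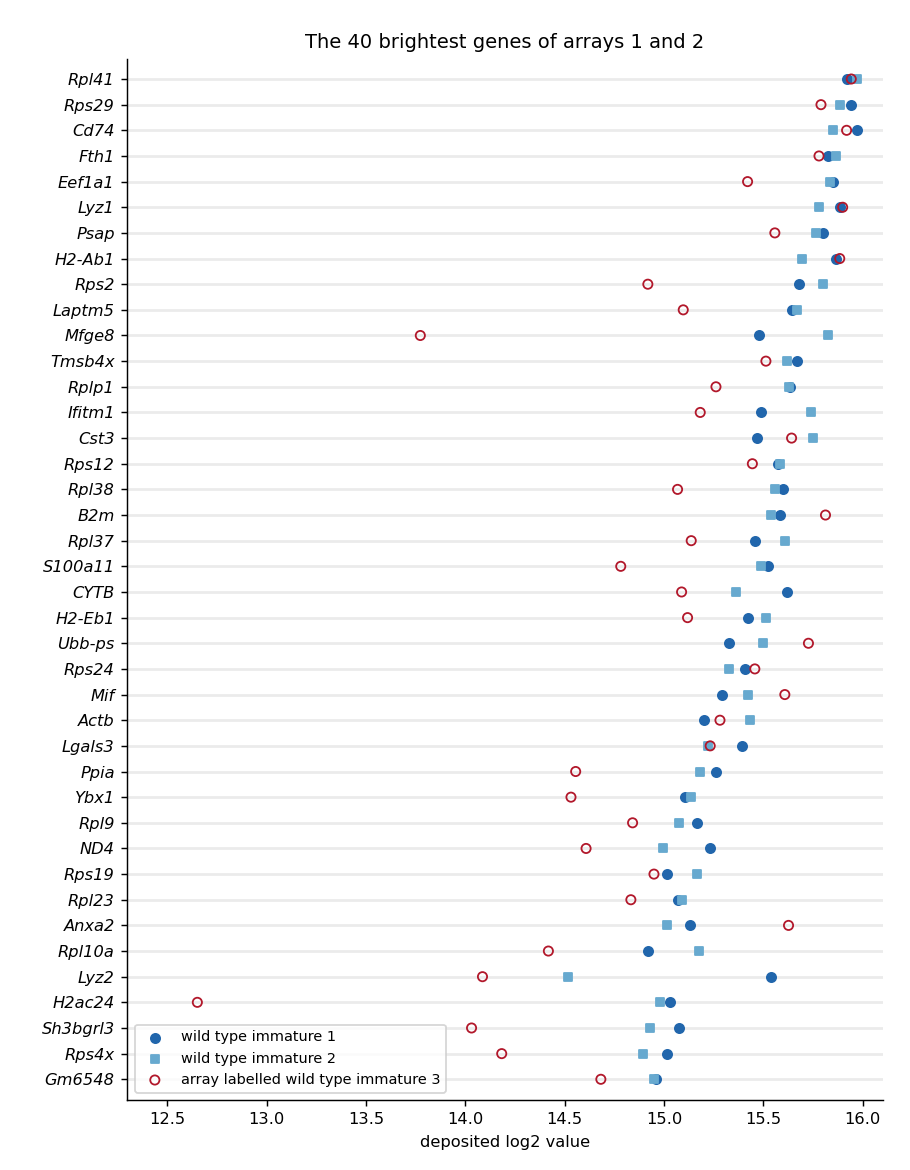
Deposited log2 values of the 40 brightest genes on arrays 1 (filled circles), 2 (squares) and the array labelled wild type immature 3 (open circles). Arrays 1 and 2 lie within 0.35 of each other except for Lyz2, and array 3 lies far to the left for Mfge8 and H2ac24.

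MHC class II presentation stood at the top beside translation. Cd74, the invariant chain, was the 3rd brightest gene of the profile at 15.97 and 15.85 on arrays 1 and 2, and 15.92 on array 3. H2-Ab1, the beta chain of I-A, read 15.87 and 15.69, and 15.88 on array 3. H2-Eb1, the beta chain of I-E, read 15.42 and 15.51, and 15.12 on array 3. These 3 genes were among the 40 brightest, and they differed between arrays 1 and 2 by less than 0.2.

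H2-Aa, the alpha chain of I-A, was at rank 104 with 14.10 and 14.28, and 14.07 on array 3. All 14 members of the class II list were detected, beside 49.8% of all genes with a probe. Of them 9 were among the 1000 brightest, where 5.25% of all genes with a probe fall. H2-DMa, a chain of the peptide loader, read 13.77 and 14.23, and 12.35 on array 3. Its partner chains followed, with H2-DMb1 at 13.16 and 13.57 and H2-DMb2 at 12.71 and 13.23. Ciita, the coactivator of the family, read 11.64 and 12.16, and 10.72 on array 3. The dimmest member was H2-Eb2 at rank 3516. Over the list the median of all members was 12.43, against 6.99 over all genes with a probe. Array 2 was higher for 10 of the 14 members, where 52.2% of detected genes were higher on array 2.

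MHC class I genes with a probe were all detected, 20 of 20, beside 49.8% of all genes. Among the 1000 brightest were 8 of them, beside 5.25% of all genes. B2m, the light chain of every class I molecule, read 15.58 and 15.54 on arrays 1 and 2, and 15.81 on array 3. H2-D1, a heavy chain, read 13.92 and 14.06, and 15.18 on array 3. Psmb9, a subunit of the immunoproteasome, read 12.42 and 12.92, and 13.68 on array 3. On array 3, 18 of the 20 were above the mean of arrays 1 and 2, where 42.6% of detected genes were.

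The dendritic cell list held 16 detected genes of 19 with a probe, or 84.2% beside 49.8% of all genes. Cd74, H2-Ab1, H2-Eb1, H2-Aa and Ciita are in this list and in the class II list above, so the counts overlap. Of the 16, 14 were higher on array 2 than on array 1, where 52.2% of all detected genes were. The other 2 were Cd74 and H2-Ab1. Itgax, which encodes the CD11c chain used to gate dendritic cells, read 9.34 and 9.37 on arrays 1 and 2, and 8.23 on array 3, at rank 3958. Its other probe read 7.45 and 7.58. Both probes were detected on both arrays, and the brighter value lay close to the median of all detected genes. Cd86, a costimulatory ligand, was at rank 438 with 12.40 and 13.16, and 13.95 on array 3. Ccr7, the receptor that leads maturing dendritic cells to lymph nodes, was at rank 1099 with 11.49 and 11.62, and 11.93 on array 3. Its values lay within 0.45 of each other on all 3 arrays.

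Transcription factors of dendritic cells were detected at middle ranks. Irf8 read 11.37 and 11.70 on arrays 1 and 2, and 12.95 on array 3. Irf4, linked to the IL-4-driven form, read 10.96 and 11.37, and 11.10 on array 3. Zbtb46, which marks conventional dendritic cells, read 8.01 and 8.70 on its brightest probe, and its other 2 probes were not detected. Dpp4, a surface peptidase of dendritic cells, was detected by 1 of its 2 probes at 10.33 and 10.67. Flt3, the receptor behind the marrow's other dendritic cell route, was not detected by either probe, with a brightest reading of 6.82 and 6.74. Cd209a and Snx22 were not detected on both arrays either, although Cd209a reached 7.21 on array 2.

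For conventional type 1 dendritic cells 3 of 7 list members were detected, or 42.9%, near the 49.8% of all genes with a probe. Itgae, which encodes CD103, read 11.08 and 11.88 on arrays 1 and 2, and 7.59 on array 3, and all 6 of its probes were detected. Ly75, an endocytic receptor, read 8.79 and 8.80, and Clec9a, a receptor for dead cells, averaged 7.53 on the 1 of 3 probes detected. Xcr1, Cadm1, Tlr3 and Gcsam, among them the defining receptor Xcr1, were not detected, with no value above 7.04. Of the plasmacytoid list 6 of 11 were detected, or 54.5%, led by the transcription factor Tcf4 at 10.82 and 10.88. Siglech, a defining receptor of plasmacytoid cells, read 7.34 and 7.51 on 1 of 3 probes, and Ly6d and Ccr9 were not detected.

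**Figure D3:**
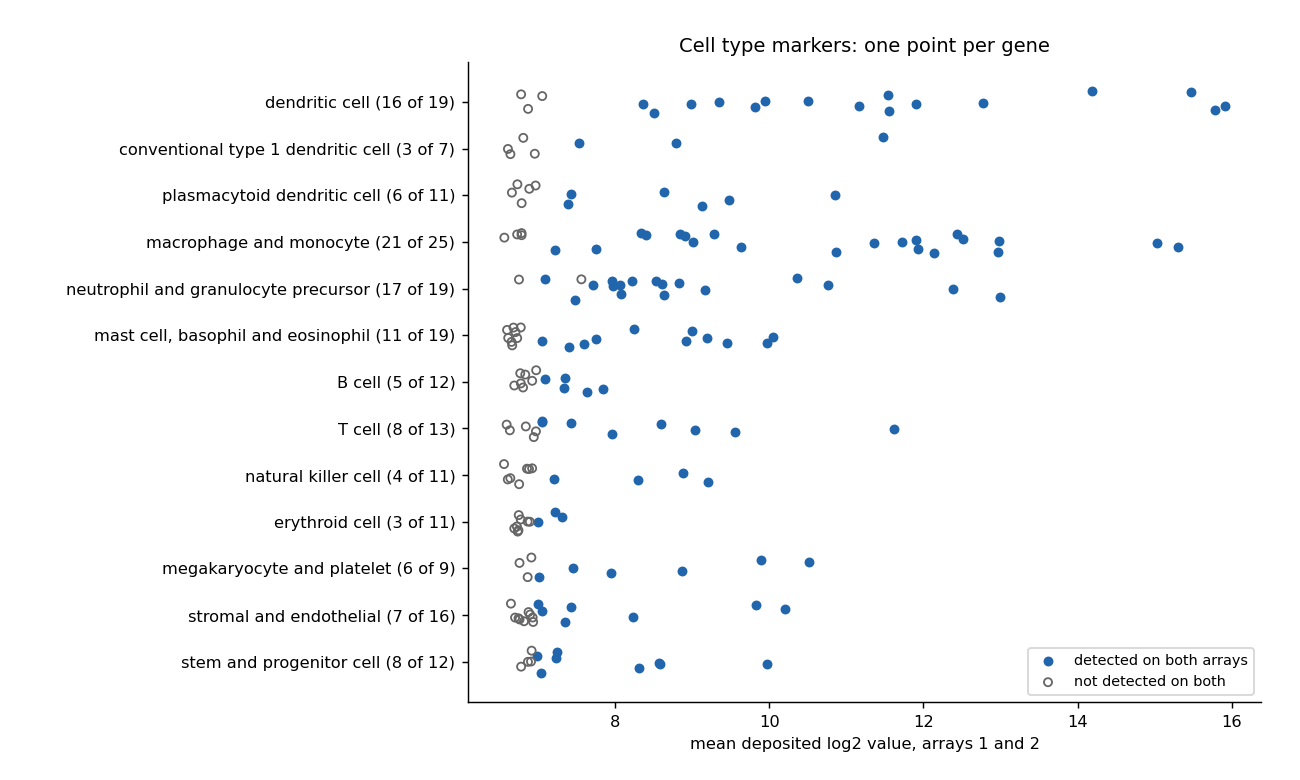
Mean deposited log2 value over arrays 1 and 2 for every gene with a probe in 13 cell type lists, filled where detected on both arrays and open where not. Counts beside the names give detected genes of those with a probe, and the dendritic cell list and the macrophage and monocyte list are the ones that reach above 14. In the dendritic cell list the points above 14 are Cd74, H2-Ab1, H2-Eb1 and H2-Aa, which are also in the class II list.

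Macrophage and monocyte genes were prominent too. Of 25 with a probe 21 were detected, or 84.0% beside 49.8% of all genes. Among the 1000 brightest were 10, where 5.25% of all genes fall. Lgals3, galectin-3, read 15.39 and 15.22 on arrays 1 and 2, and 15.23 on array 3. Lyz2, the lysozyme of macrophages and neutrophils, read 15.54 and 14.52, and 14.09 on array 3, at rank 36. It had the widest spread between arrays 1 and 2 of the 40 brightest genes, and its 2 other probes were also higher on array 1, at 14.53 against 13.80 and at 10.32 against 9.17. The bright Lyz1 probe read 15.88 and 15.78, whereas its other 2 probes read 7.77 and 7.08 and 6.96 and 6.70.

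Csf1r, the receptor for M-CSF, was at rank 356 with 13.11 and 12.85, and 11.34 on array 3. Its 2nd probe read 9.34 and 9.20. Mgl2, a galactose-binding lectin induced by IL-4, was at rank 361 with 12.61 and 13.33 on arrays 1 and 2, and 8.67 on array 3. Adgre1, which encodes F4/80, read 12.37 and 12.65, and 12.87 on array 3. All 3 genes were thus bright on arrays 1 and 2, and of these Mgl2 alone read under 9 on array 3.

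Fcgr3, a low-affinity IgG receptor, read 12.53 and 12.35 on arrays 1 and 2, and 13.12 on array 3. Fcgr1, the high-affinity IgG receptor that is often used to tell macrophages from dendritic cells, read 9.40 and 9.86. Cd14, the LPS coreceptor, read 12.55 and 11.27, and 14.22 on array 3. The complement chains C1qb and C1qc of resident-type macrophages read 11.84 and 12.03, and 10.77 and 10.95, while array 3 gave 7.49 and 7.04. Mrc1, the mannose receptor, read 12.07 and 11.37, and 7.62 on array 3. Itgam, the CD11b chain, was dim at 8.98 and 8.72 on its only probe. Among markers of settled tissue macrophages, Cd163, Vsig4, Timd4 and Siglec1 were not detected, with no value above 6.90 on arrays 1 and 2. Apoe, a lipoprotein abundant in many macrophages, read 8.23 and 7.28 on its only probe. In a bulk culture, fewer cells of a type and less RNA per cell cannot be told apart.

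Most granulocyte genes were detected, and most read higher on array 1. Of 19 in the neutrophil and granulocyte precursor list 17 were detected, or 89.5% beside 49.8% of all genes, and Retnlg and Padi4 were not. S100a8 and S100a9, the calprotectin chains, read 13.53 and 12.45, and 13.08 and 11.69, on arrays 1 and 2. Ltf, lactoferrin of secondary granules, read 11.68 and 9.85, and 8.45 on array 3. Mpo, the myeloperoxidase of granulocyte precursors, read 10.10 and 7.55, and 6.86 on array 3. Camp, an antimicrobial peptide of granules, read 9.47 and 7.82. Array 1 was higher for 16 of the 17, where 47.7% of detected genes were higher on array 1, and the median difference was 1.04 on the log2 scale. The exception was Cxcr2, a neutrophil chemokine receptor, at 7.61 and 8.34.

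Of the mast cell, basophil and eosinophil list 11 of 19 genes were detected, or 57.9%, near the 49.8% of all genes with a probe. Prg2, major basic protein, read 10.53 and 9.57 on arrays 1 and 2. Prss34, a basophil protease, read 10.19 and 8.20, and Mcpt8, another basophil protease, read 8.74 and 7.74. Kit, the stem cell factor receptor of mast cells and progenitors, read 10.08 and 9.86 on 1 of 3 probes. Among mast cell proteases Cpa3, carboxypeptidase A3, read 9.24 and 8.59 with all 3 probes detected, whereas Mcpt4, Cma1, Tpsb2 and Tpsab1 were not detected, with means between 6.66 and 6.78. Ms4a2, Il5ra, Siglecf and Ccr3 were not detected either, with means between 6.60 and 6.73. Epx was detected at a mean of 7.06, near the lowest detected mean of 6.95. Hdc read 9.49 and 9.41, and Gata2 read 9.13 and 8.88. Array 1 was higher for 9 of the 11 detected members, beside 47.7% of all detected genes. Of the megakaryocyte and platelet list 6 of 9 genes were detected, or 66.7% beside 49.8% of all genes. All 6 were higher on array 1. Pf4, platelet factor 4, read 11.15 and 9.89, and Ppbp, a platelet chemokine, read 9.47 and 8.26. Gp9 was only just detected, at 7.08 and 6.95, with a detection p of 0.0491 on array 2. Gp1bb, Itgb3 and Gp6 were not detected on both arrays, with means of 6.92, 6.87 and 6.76.

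**Figure D4:**
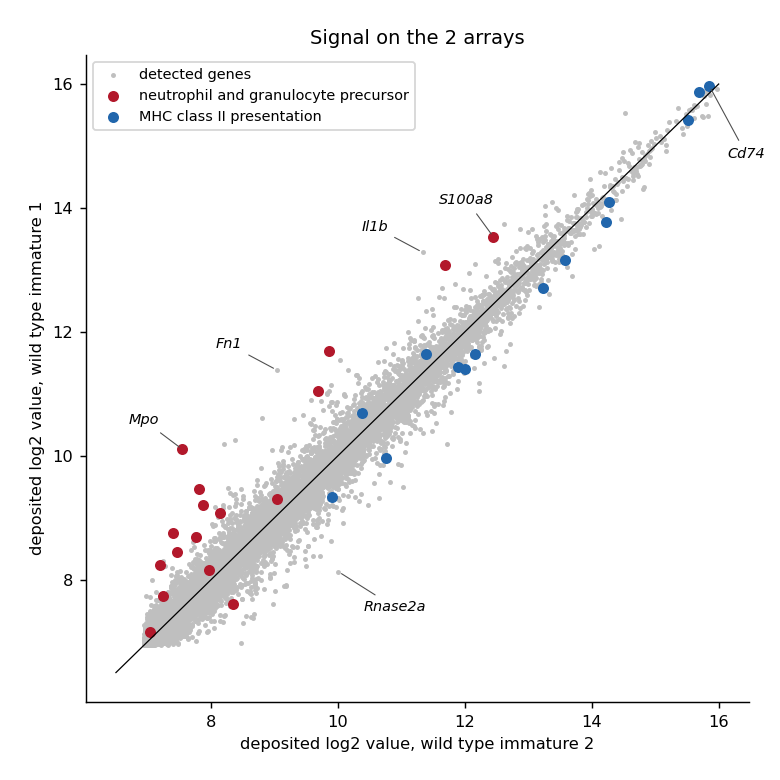
Deposited log2 value on array 1 against array 2 for the 9497 detected genes (grey), with the neutrophil and granulocyte precursor list in red and MHC class II presentation in blue. Of the granulocyte genes 16 of 17 lie above the line of equal signal, beside 47.7% of all detected genes. Of the class II genes 10 of 14 lie below it, beside 52.2%.

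Granulocyte genes were also among the largest gaps between arrays 1 and 2. In all, 78 genes, or 0.821%, differed by more than 1 on the log2 scale. Of the 8 genes with the largest excess on array 1, Mpo, Ltf, Camp and Prss34 belong to granulocytes. Fn1, fibronectin, read 11.38 and 9.03 on arrays 1 and 2, and Thbs1, thrombospondin-1, read 10.60 and 8.80. Il1b, an inflammatory cytokine, read 13.28 and 11.33, and 15.84 on array 3, and Ceacam15 read 10.26 and 8.37. On array 2 the largest excess was that of Rnase2a, a ribonuclease of the eosinophil family, at 8.13 and 10.01. Tcea3, Emp1, Ccl24, Cd209c, Mfsd2a, Epop and Neurl1a followed, with gaps between 1.29 and 1.53. Ccl24, an eosinophil-attracting chemokine induced by IL-4, read 6.98 and 8.47, and Cd209c, a lectin, read 7.60 and 8.98. The part that cell composition has in these gaps was not tested.

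Lymphoid lists were detected in shares around the 49.8% of all genes with a probe. Of the B cell list 5 of 12 were detected, or 41.7%, with a highest mean under 8 for the adaptor Blnk at 7.95 and 7.75 on arrays 1 and 2. Ms4a1, Pax5, Vpreb1 and Vpreb3 were not detected. Of the T cell list 8 of 13 were detected, or 61.5%. Cd6, a surface receptor of T cells, read 9.39 and 9.73 with 3 of 4 probes detected, and Thy1, a surface protein of T cells and other cells, read 9.22 and 8.86. Of the T cell receptor complex, Cd3g read 8.49 and 8.71, and Cd3e read 7.10 and 7.01. Cd8b1 was bright on 1 of 3 probes, at 11.52 and 11.72, while its other probes read 6.76 and 6.84 and 7.11 and 6.94. Its partner chain Cd8a was not detected by either probe. Cd247, Cd2, Cd5 and Zap70 were not detected on both arrays either, with means from 6.64 to 6.97. Cd3e and Lat, with means of 7.06 and 7.05, lay near 6.95, the lowest mean of a detected gene. Of the natural killer list 4 of 11 were detected, or 36.4%, led by the receptor chain Klrd1 at 8.99 and 9.42. Perforin, encoded by Prf1, read 8.67 and 9.08, and Ncr1, Klrb1c, Gzmb and Eomes were not detected.

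Of the erythroid list 3 of 11 genes were detected, or 27.3% beside 49.8% of all genes, all with means under 8. Beta globin Hbb-bs read 7.09 and 7.55 on arrays 1 and 2, and neither Hba-a1 nor Klf1 was detected. Of the stromal and endothelial list 7 of 16 were detected, or 43.8% beside 49.8% of all genes. Its brightest member was Fn1, fibronectin, at 11.38 and 9.03 with 2 of 4 probes detected. Acta2, smooth muscle actin, read 9.81 and 9.84, with 4 of its 6 probes detected. Dcn, the matrix proteoglycan decorin, read 8.18 and 8.28. Col1a1, collagen I, read 7.26 and 7.45, and Col1a2, Col3a1, Pdgfrb and Cdh5 were not detected. Of the stem and progenitor list 8 of 12 were detected, or 66.7%, with Meis1 at 8.50 and 8.68 and Cd34 at 7.09 and 7.37. Cd34, Egfl7, Mecom and Myb had means from 6.98 to 7.25, near the lowest detected mean of 6.95. With a detection p under 0.01, 6 members were detected. Hoxa9, Hlf, Procr and Flt3 were not detected on both arrays.

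Y-linked genes were detected and Xist was not. Eif2s3y, a translation factor subunit on the Y chromosome, read 11.33 and 11.53 on arrays 1 and 2, and 11.53 on array 3. None of the 4 probes for Xist, the RNA that silences an X chromosome in females, was detected on these arrays. The labels give no sex.

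Receptors for the growth factors of the culture were detected. Csf2rb2, a beta chain for IL-3 that resembles the GM-CSF chain, was at rank 330 with 12.97 and 13.13. Csf2ra, the alpha chain for GM-CSF, read 12.20 and 12.27, and 11.04 on array 3. The common beta chain Csf2rb, named with its values known, read 10.81 and 11.15. Il4ra, the alpha chain for IL-4, was dim at 7.46 and 7.54. In all 27 of 30 receptor genes in the list were detected, beside 49.8% of all genes, and Flt3, Ifnar1 and Il5ra were not. Among myeloid transcription factors 36 of 43 were detected, beside the same 49.8%. Klf6 read 14.14 and 14.07, Cebpb read 14.03 and 13.26, and Egr1, an immediate early gene, read 13.55 and 13.41 but 10.17 on array 3.

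Genes known to respond to IL-4 were detected in 20 of 23 cases, beside 49.8% of all genes, and 10 were among the 1000 brightest, beside 5.25%. Ccl17, a chemokine that draws T cells, read 14.34 and 14.82 on arrays 1 and 2, and 15.16 on array 3. Il4i1, an amino acid oxidase induced by IL-4, read 14.31 and 14.80, and 15.41 on array 3. Both were higher on array 2 than on array 1, as were 15 of the 20 detected members and 52.2% of all detected genes. The chitinase-like genes Chil3 and Chil4 read 14.06 and 13.88, and 13.95 and 13.77, and being close copies they may share signal. Cish, a feedback inhibitor of STAT5, read 12.90 and 13.69. Retnla, another classic IL-4 target of macrophages, was not detected, with 6.77 and 6.94, and neither were Cd209a and Myc.

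Lysosomal genes were detected in 25 of 26 cases, beside 49.8% of all genes, and 17 were among the 1000 brightest, beside 5.25%. The median over all members was 12.37. Psap, the precursor of the saposins that help digest sphingolipids, read 15.80 and 15.76 on arrays 1 and 2, and 15.56 on array 3. Laptm5, a lysosomal membrane protein of blood cells, read 15.64 and 15.67. Cst3, the cathepsin inhibitor cystatin C and a gene known for high levels in dendritic cells, read 15.47 and 15.75, and 15.64 on array 3. Ctsb and Ctsh, both cathepsins, read 14.80 and 14.48, and 13.85 and 13.75. Acp5, an acid phosphatase of osteoclasts, was not detected, with 6.97 and 6.71. Array 1 was higher for 21 of the 25 detected lysosomal genes, beside 47.7% of all detected genes, with a median difference of 0.10.

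Iron storage and antioxidant genes were all detected, 28 of 28, beside 49.8% of all genes. Fth1, the ferritin heavy chain, was at rank 4 with 15.83 and 15.87 on arrays 1 and 2, and 15.78 on array 3. Ftl1, the light chain, read 14.76 and 14.51, Gpx1, a glutathione peroxidase, read 14.66 and 14.71, and Prdx1, a peroxiredoxin, read 14.75 and 14.42. Actin genes were detected in 35 of 37 cases, with 23 among the 1000 brightest, beside 49.8% and 5.25% of all genes. Tmsb4x, which binds free actin, read 15.67 and 15.62, and Actb, beta actin, read 15.20 and 15.43. Rhoa and Lsp1 were not detected on their probes.

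Other genes of the top 40 have varied roles. Mfge8, which bridges dying cells to phagocytes, read 15.48 and 15.83 on arrays 1 and 2, and 13.77 on array 3. Ifitm1, a membrane protein of the interferon-induced family, read 15.49 and 15.74. S100a11 and Anxa2, calcium-binding proteins, had means of 15.51 and 15.07, and Sh3bgrl3, a small thioredoxin-like protein, read 15.07 and 14.93. Mif, a cytokine, and Ppia, cyclophilin A, had means of 15.36 and 15.22. Ybx1, an RNA-binding protein, had a mean of 15.12. The mitochondrial genes CYTB and ND4 of the respiratory chain had means of 15.49 and 15.11. H2ac24, a replication-dependent histone H2A, read 15.03 and 14.98, and 12.65 on array 3. Ubb-ps and Gm6548, at 15.41 and 14.95, are listed names of probes that may read other copies. The 100 brightest genes held 5 histone H2A genes, whose near-identical copies can share signal.

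Of the 100 brightest genes 63 belonged to a list and 37 to none. Among the 100 brightest probes, 41 had no single gene symbol and are left out of the ranking of genes. Of the same 100 genes, 64 were also among the 100 brightest on array 3.

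Genes of energy metabolism were mostly detected. Of the oxidative phosphorylation list 42 of 44 genes were detected, and 26 were among the 1000 brightest, beside 49.8% and 5.25% of all genes. Atp5b, the beta subunit of ATP synthase, read 14.73 and 14.57 on arrays 1 and 2. Of 20 glycolysis genes 17 were detected, beside the same 49.8%. Gapdh led them at 14.52 and 14.66, followed by Pkm, pyruvate kinase, at 14.36 and 14.56. On array 3, 15 of these 17 were above the mean of arrays 1 and 2, beside 42.6% of all detected genes.

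Sensing and uptake receptors are given by family, beside the 49.8% of all genes that were detected. Clec4n, which encodes the fungal receptor dectin-2, was the brightest C-type lectin at 14.61 and 14.43. Of the lectins 17 of 27 were detected, or 63.0%. Clec7a, dectin-1, read 12.58 and 12.23. Cd207, which encodes langerin, read 10.80 and 11.52 on arrays 1 and 2, and 6.81 on array 3. Of the Fc receptors 10 of 14 were detected, or 71.4%, led by the signalling chain Fcer1g at 15.06 and 14.69. Tlr2, which senses bacterial lipoproteins, was the brightest Toll-like receptor with a mean of 13.31. Tlr4, the LPS receptor, read 10.20 and 9.79 on arrays 1 and 2, and 9.16 on array 3, while Tlr3, Tlr9, Tlr11 and Tlr12 were not detected. Of 22 chemokine receptors 9 were detected, or 40.9%, near the 49.8% of all genes, and Ccr7 was the brightest. Ccr1, Ccr3, Ccr4 and Ccr8 were not detected.

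Genes of proliferation were detected in 30 of 33 cases, beside 49.8% of all genes. Tubb5, a tubulin, read 14.46 and 14.36 on arrays 1 and 2. Mcm4, of the replicative helicase, read 12.04 and 11.81, and 10.63 on array 3. Cdk1, the kinase of mitosis, read 10.01 and 9.84 on 1 of 3 probes, and 7.55 on array 3. Top2a, a topoisomerase of dividing cells, read 10.68 and 10.49, and 8.37 on array 3. Array 3 was below the mean of arrays 1 and 2 for 27 of the 30, where 57.4% of detected genes were. Ccnd2, a D-type cyclin, ran the other way at 11.18 and 12.22, and 14.20 on array 3.

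Polycomb genes were detected in 12 of 14 cases, beside 49.8% of all genes. Ezh2, the catalytic subunit that the other genotype of the study lacks, read 9.92 and 9.73 on arrays 1 and 2, and 10.48 on array 3, and 2 of its 3 probes were detected. Suz12 and Eed, its core partners, read 12.11 and 11.99, and 10.00 and 10.37. Ezh1, the related enzyme named with its values known, read 7.06 and 6.99.

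Genes induced by LPS and by interferon are given on all 3 arrays as a description, since array 3 was set aside for its signal at such genes. Of 29 LPS response genes 21 were detected on arrays 1 and 2, beside 49.8% of all genes. All 21 were above the mean of arrays 1 and 2 on array 3, beside 42.6% of all detected genes, with a median gap of 2.52. Ccl5, a chemokine, read 13.54 and 13.12 on arrays 1 and 2, and 15.85 on array 3. Fscn1, which bundles actin in mature dendritic cells, read 12.50 and 12.86, and 13.37 on array 3, and Cd83, a maturation marker, read 12.02 and 12.36, and 13.06. Several LPS genes were thus bright already on the untreated arrays. Il12a, Il23a, Il10 and Il27 were not detected on arrays 1 and 2, where their values lay between 6.62 and 7.05, and they read 11.34, 8.24, 8.19 and 8.58 on array 3. Of 24 interferon response genes 20 were detected on arrays 1 and 2, and all 20 were higher on array 3, against the same 49.8% and 42.6%, with a median gap of 3.12. Gbp2, a guanylate-binding protein, read 12.70 and 12.55, and 15.22 on array 3, whereas Ifit1 and Xaf1 were not detected on arrays 1 and 2.

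**Figure D5:**
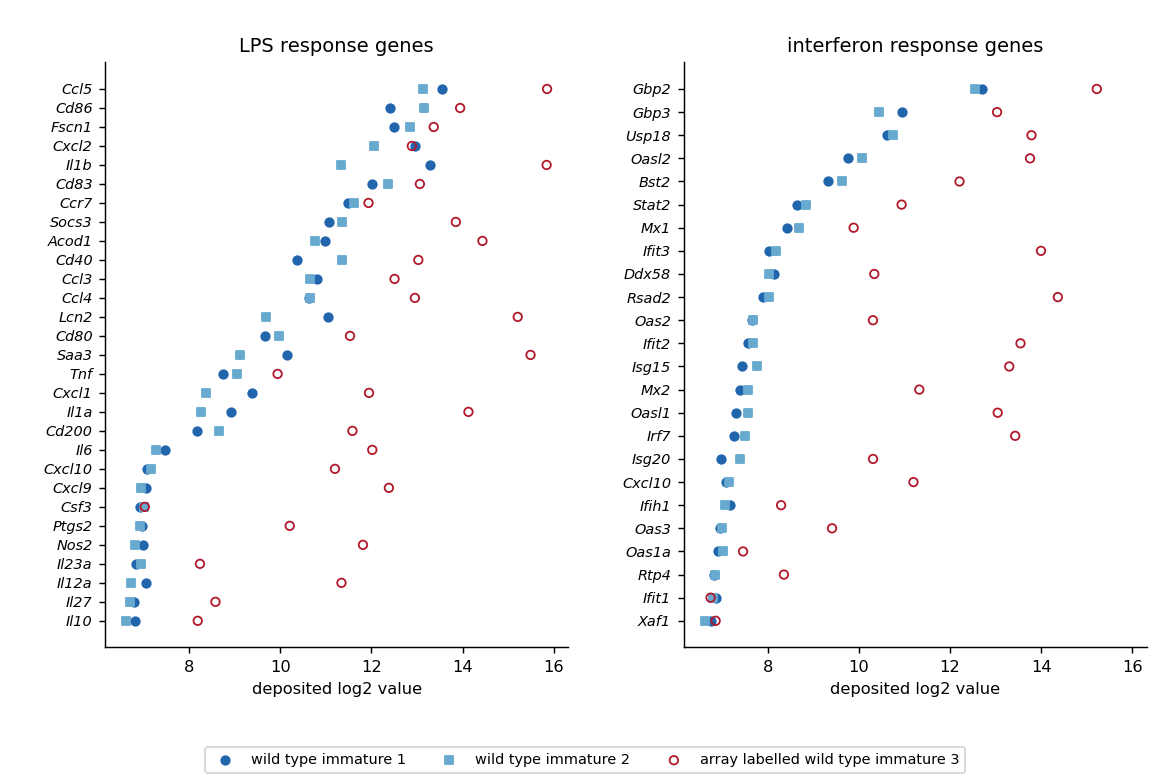
Deposited log2 values of LPS response genes (left) and interferon response genes (right) on array 1 (filled circles), array 2 (squares) and the array labelled wild type immature 3 (open circles). Array 3 lies to the right of the mean of arrays 1 and 2 for all 21 and 20 detected members. Arrays 1 and 2 lie apart for some genes, such as Il1b at 13.28 and 11.33 and Lcn2 at 11.05 and 9.68.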

How the data were processed

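RNA was amplified with the Illumina TotalPrep kit, per the labels' protocols. Per the file headers, the authors deposited for each array the intensity of 45281 probes, averaged over beads and not normalized, with a detection p-value. The smallest step of these deposited p-values was 1 in 936. The authors also deposited log2 values, which shared 1 distribution with a median of 6.84 and lay within 0.00063 of the log2 rank means of the intensities, as quantile normalization without background correction gives. Per the submitters' processing notes, the tools were BeadStudio, limma and R 2.15.2, whose roles are not given. Without background correction, dim genes sit near 6.7 and differences among them are understated.

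Ranks used the mean deposited log2 value of arrays 1 and 2, over probes with a detection p under 0.05 on both. Of all probes, 34885 had 1 gene symbol and 18 had several, and 34807 symbols were updated through the gene ID. The 41 lists hold 883 genes, 797 with a probe. Members and lists were chosen with earlier results of these data known. Named genes are the 40 brightest, the markers given for the culture, up to 6 detected and 4 undetected members per list, members whose probes disagree, the 8 largest differences each way, and 2 genes on each side of the threshold. Il6, Mcpt8, Il4ra, Csf2rb, Apoe, Cd3e, Cd207, Ezh1, H2-DMb2, H2-Eb2, Irf4, Irf8, Rps15a, Rpl21 and Rpl7a were chosen after their values were seen. So were Zap70, Ms4a2, Siglecf, Ccr3 and Epx. No test was run, since no groups were compared, and the number of arrays limits the precision. Alternatives used neqc in limma 3.58.1 (R 4.3.3, offset 16) and other filters, probes and arrays. The ranking code was run on simulated data with 200 genes raised well above all others and every probe counted as detected. It placed 200 of 200 among the brightest, which that gap fixed in advance. The run thus checks the code, and neither the detection rule nor probes that disagree. No value column lacked a sample.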

Additional observations from a re-analysis of the deposited data

Results flagged for a closer look

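The array labelled wild type immature 3 is outside the profile, and 9 genes were detected on it but by no probe on arrays 1 and 2 while reading at least 2 log2 units higher. Ifit1bl1, of an interferon-induced family, read 6.55 and 6.74 on arrays 1 and 2, against 10.22 on array 3. Ifnb1, interferon beta, read 6.48 and 6.75, against 9.03 on array 3. The others were Gp6, Hspa1a, Tnfsf15, Serpina3f, Ifi211, Cxcl3 and Oas1b. This contrast of 1 array with 2 was not tested.

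Signal also appeared in probes that the ranking of genes does not use: 2513 probes without a single gene symbol were detected on both arrays 1 and 2.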

How the results depend on the processing

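The number of detected genes was 9497 and stayed within 1.5 times of it under every alternative run: 8668 with a detection p under 0.01, 10681 with detection on at least 1 array, 10067 to 10137 with a single array, and 8743 with array 3 required too. Detected members of the 13 cell type lists numbered 115, with a range from 96 to 130. Of the 100 brightest genes, 100 remained with neqc values, 99 with intensities not normalized, 100 with no filter on detection, 97 and 98 without array 1 or array 2, 91 with array 3 in the mean and 73 with the mean over a gene's detected probes. The median difference between arrays 1 and 2 was 0.146, and 0.111 to 0.207 under the alternatives. The median rank of a list moved by more than the spread between single arrays in 27 of 41 lists with the mean over probes and in 25 with array 3 added. It also moved in 16 lists without array 1 and in 9 without array 2. Detected erythroid genes fell from 3 to 1 with a detection p under 0.01. With array 3 required, the mast cell, basophil and eosinophil list fell from 11 to 7. The T cell list fell from 8 to 5, and the neutrophil and granulocyte precursor list from 17 to 12. No paired analysis was possible because no groups were compared. With 2 arrays of unstated origin, no difference between them can be assigned to cultures or animals.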
